A study of Homo sapiens with 4 samples.

Results

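The cytosolic ribosomal protein genes were examined in U87MG cells, a human glioblastoma cell line, after silencing of caspase-2. A probe set, the group of probes that an Affymetrix array reads as 1 value, was taken as a member when its only gene symbol in the platform annotation was RPL or RPS plus digits with an optional A, X or L, or RPLP0, RPLP1, RPLP2 or RPSA. S6 kinases and pseudogenes were left out. This rule, which uses no measured value, found 92 of the 32321 probe sets, for 61 of the 18404 genes measured by a probe set of their own. Of these, 57 probe sets were for 39 proteins of the large, 60S subunit and 35 probe sets for 22 proteins of the small, 40S subunit. A further 11 genes that meet the rule by symbol were named only on probe sets shared with other genes and are not among the members. These were RPL6, RPL9, RPL13A, RPL21, RPL36A, RPL37, RPL39, RPS10, RPS12, RPS18 and RPS26.

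Total RNA was measured on 4 arrays, 2 from cultures transfected with a siRNA against CASP2 and 2 from cultures transfected with a control siRNA, labelled as biological replicates. All cultures were unmodified U87MG, grown in DMEM with serum, and the labels of all 4 samples name Dharmacon as the source of RNA oligos, without saying which oligo was used. The model is 1 cell line, and transfection itself was common to both groups. The study's methods list 1 CASP2 siRNA from Dharmacon, but the labels do not state that both silenced cultures received it. No source used here states how long after transfection the array cultures were harvested.

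Each ribosome holds 1 copy of nearly every ribosomal protein, apart from the stalk proteins, and the synthesis of these proteins is matched to that of ribosomal RNA. Most of the mRNAs begin with a C followed by a run of pyrimidines, the terminal oligopyrimidine (TOP) motif, through which mTORC1 controls their translation. Several of the proteins also act away from the ribosome. RPL5 and RPL11, for example, bind MDM2 together with 5S ribosomal RNA and so raise p53.

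The start of transcription was read from the RefSeq promoter table (GRCh38.p14), which held 60 annotated starts for 50 of the 61 genes. The base at the start was a C in 41 of the 60 (68.3%), compared with 14.7% of the 35116 starts of all genes in the table. A C followed, itself included, by at least 5 pyrimidines stood at 36 of the 60 member starts and at 4.07% of all starts. The windows below hold 15 bases before the start and the first 15 transcribed bases of the first exon, 30 in all, 5′ to 3′ on the strand of the gene. They are shown because the TOP motif is what most members share in sequence. Capitals mark the unbroken pyrimidine run that begins with a C at the start. RPS6, RPL27A, RPS27, RPL11, RPS19 and RPLP2 are genes described by array further on, RPL7A has the longest run at a start (16 bases, of which the window holds 15), RPL3 has a run of 4, and RPL10L and RPS27L have none. For RPL11 and RPS19 a further start, without such a run, is annotated and not shown.
RPS6, chr9:19380222-19380251, minus strand: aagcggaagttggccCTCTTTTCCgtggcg
RPL27A, chr11:8682777-8682806, plus strand: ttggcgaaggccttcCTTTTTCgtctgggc
RPS27, chr1:153990747-153990776, plus strand: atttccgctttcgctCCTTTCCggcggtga
RPL11, chr1:23691791-23691820, plus strand: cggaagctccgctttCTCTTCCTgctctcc
RPS19, chr19:41860240-41860269, plus strand: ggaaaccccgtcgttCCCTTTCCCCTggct
RPLP2, chr11:809952-809981, plus strand: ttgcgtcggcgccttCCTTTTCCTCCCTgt
RPL7A, chr9:133348203-133348232, plus strand: ccacaattccctttcCTTTCTCTCTCCTCC
RPL3, chr22:39319609-39319638, minus strand: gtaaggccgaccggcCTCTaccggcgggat
RPL10L, chr14:46651767-46651796, minus strand: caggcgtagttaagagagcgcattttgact
RPS27L, chr15:63157463-63157492, minus strand: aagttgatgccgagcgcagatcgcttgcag

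In the whole promoter window of 300 bases, from 250 before the start to 50 from it on, the letters CCGGAAG were found on either strand in 23 of the 60 member windows (38.3%) and in 10.3% of all windows. These letters hold the GGAA core of sites for ETS family factors. TATAAA, the letters of the TATA box, which cannot overlap with them, was found in 5 member windows (8.33%) and in 11.5% of all windows. A match is a description of the letters in these windows and not a binding site.

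CASP2 checked the labels. Its log2 value was 10.74 and 10.69 on the control arrays and 8.79 and 8.52 on the CASP2 siRNA arrays, 4.17-fold lower on average. The log2 fold change was -2.06 with an SE of 0.13, and with 2 arrays a group its adjusted p by limma was 0.9999. Mesenchymal and glioma markers such as VIM (control mean 13.04) and CD44 (12.95) were among the brightest probe sets. The glial markers GFAP (6.53), OLIG2 (6.05), SOX2 (5.50) and S100B (3.74) lay near or below the median of all probe sets, 6.20. Of the 9 glioma and mesenchymal markers, FN1, SPARC, OLIG2 and S100B had both silenced arrays above both controls, with changes of 0.15 to 0.21. The 3 leukocyte and 3 endothelial markers measured lay below that median. Of 3 epithelial markers KRT8 (6.38) lay above it, and of 2 neuron markers SNAP25 (8.45) did. Whether the changes of these markers bear on those of the ribosomal proteins was not tested. Both control arrays had a median near 6.21, and the CASP2 siRNA arrays had medians of 6.18 and 6.28.

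The ribosomal protein probe sets were bright. Their control means had a median of 11.2 on the log2 scale, and 56 of the 92 (60.9%) lay above 10.37, a level that 10% of all probe sets exceed. Above 12.61, the level of the top 1%, lay 16 of them. Only 4 lay below the median of all probe sets. Probe sets differ in how strongly their probes hybridize, so these levels place each probe set on the array and do not rank the amounts of the mRNAs.

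After CASP2 silencing none of the 92 probe sets passed both thresholds that the study set, which were a fold over 1.5 and an unadjusted p below 0.05. By limma over all probe sets these thresholds called 0.331% of probe sets higher and 0.362% lower, and 0 members in either direction. No member had an adjusted p under 0.05, a call that 0.0% of all probe sets reached. At an unadjusted p under 0.05, 0 members were higher, against a background of 1.54%, and 1 was lower, against 1.49%. That probe set was 1 of 5 for RPS3A, a protein of the 40S subunit. RPS3A was again the only member gene with quantile normalization and without dim probe sets. By limma with trend and robust options RPL27 and RPL35 were under that p instead, among 1239 of all 32321 probe sets. With median centring and with the replicate number as a block, 0 members were, among 792 and 965 probe sets. The t-test of the study's methods put 0 members under an unadjusted p of 0.05, and only 100 of all 32321 probe sets.

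The changes were small. The log2 fold change was under 0.1 in size for 68 members (73.9%), against a background of 56.0% of all probe sets. The 95% confidence interval of 84 members (91.3%) lay within 1.5-fold in both directions, against 75.7%. Among probe sets with a control mean of 10 or more, which vary less between arrays, these shares were 74.3% and 96.1% over all probe sets, and 47 and 58 of the 60 members. At this level members therefore had shares close to those of other bright probe sets. Among the 30 members with a control mean of 12 or more, the log2 fold change was at most 0.11 in size. The 8 intervals that reached past 1.5-fold belonged to RPL22, 2 probe sets of RPL27A, and 1 each of RPL7, RPL34, RPLP1, RPS9 and RPS28. For these a change of 1.5-fold lay within the error of the arrays.

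**Figure D1:**
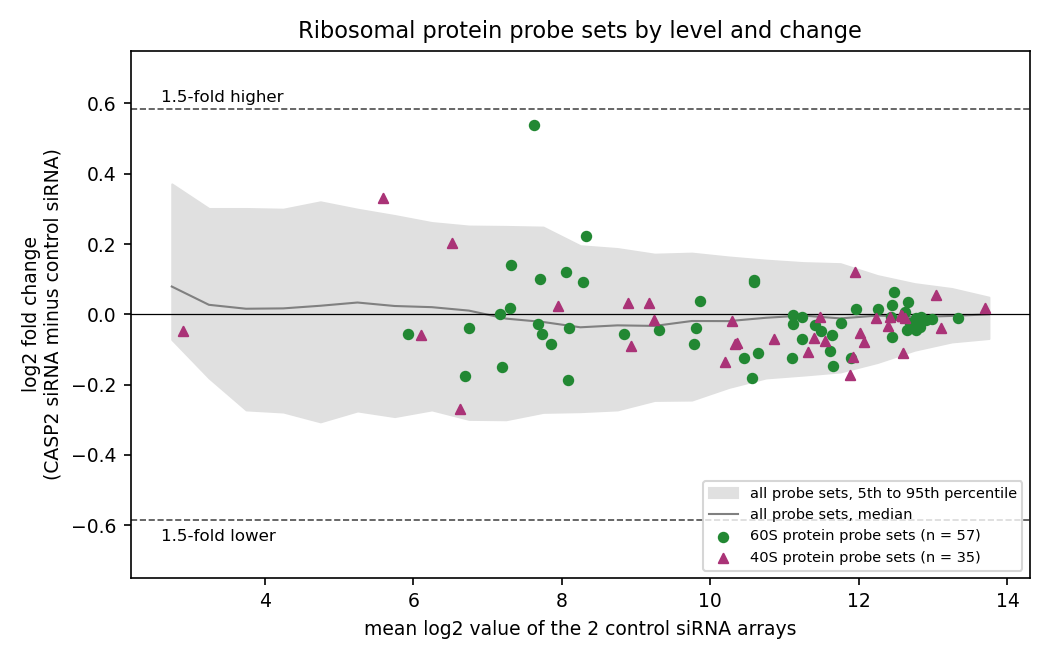
Log2 fold change (CASP2 siRNA minus control siRNA) of the 92 ribosomal protein probe sets against their mean log2 value on the 2 control arrays, with circles for 60S and triangles for 40S proteins. The grey band spans the 5th to the 95th percentile of all probe sets at each level and the grey line is their median. No point passes the dashed lines at 1.5-fold, and the farthest from 0 is a probe set of RPL27A at 0.54.

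Below 0 lay the log2 fold change of 67 members (72.8%), 40 of the 57 for 60S and 27 of the 35 for 40S proteins, against 49.3% of all probe sets. The median over the members was -0.027, beside 0.002 over all probe sets. It was -0.026 over the 60S and -0.032 over the 40S proteins. Quartiles of the members were -0.072 and 0.009. Single members varied around this with an SD of 0.106. Among all probe sets with a control mean of 10 or more, 56.0% lay below 0, and of the 60 members at that level 49 did. By gene, all probe sets lay below 0 for 41 genes and above 0 for 9, and 11 genes had both signs. Members below a control mean of 10 had a median of -0.032 and a mean of 0.011, which differ in sign.

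The silenced arrays differed from each other. The median difference of the members from their control means was 0.0014 on the first CASP2 siRNA array and -0.059 on the second, while all probe sets had 0.0013 and -0.0017. At a control mean of 10 or more it was -0.0077 and -0.051 for the 60 members, beside 0.012 and -0.034 for all probe sets, so the members read lower by about as much on each array. Bright probe sets in general also read lower on the second array than on the first. The 60 members had a median control mean of 12.0, against 10.9 for all bright probe sets, so the 2 sets differ in level. On that second array 59 members (64.1%) read below both control arrays, against a background of 40.2%, and 43 of the 60 bright members did, against 52.5% of all bright probe sets. On the first array 35 members (38.0%) did so, against 37.0%, and 26 of the 60 bright members, against 31.6%. The second array read below the first for 66 members (71.7%), against 53.4%, and for 44 of the 60 bright members, against 65.9%. Without the second array the median of the members was 0.0014 and 44 were below 0, and without the first the median was -0.059. The shares of all probe sets below 0 in these settings are not given here. The cause of this difference between the silenced arrays was not tested.

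Both CASP2 siRNA arrays read below both control arrays for 23 members (25.0%), 13 for 60S and 10 for 40S proteins, against a background of 15.1%. Among all probe sets with a control mean of 10 or more, 22.4% did so, and 17 of the 60 members at that level. With each array centred on its median the count of members was 12. The share over all probe sets under that centring is not given here. Both arrays read above both controls for 6 members (6.52%), against 14.5%. At a control mean of 10 or more, 17.5% of all probe sets did so, and 3 of the 60 members. The 6 members were 1 probe set each of RPL27A, RPL28, RPL34, RPL41, RPS15 and RPS27. Because RMA equalizes the arrays and each is a bulk sample, fewer cells expressing a gene and less of its mRNA per cell cannot be told apart, and a loss of ribosomal protein mRNA in step with all other mRNA would not be seen.

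The 5 largest decreases were in probe sets of RPS3A, RPL7, RPL27, RPL22 and RPS6. RPS3A read 6.63 and 6.63 on the control arrays and 6.40 and 6.33 after silencing, a change of -0.27 on the log2 scale with an interval from -0.51 to -0.02. Its unadjusted p was 0.0376 and its adjusted p 0.9999 by limma. The groups did not overlap, but this probe set was the next to dimmest of 5 for the gene, and the other 4 changed by -0.05, -0.02, 0.03 and -0.05.

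RPL27, a 60S protein with 1 probe set, read 10.57 and 10.55 on the control arrays and 10.41 and 10.34 after silencing. Both silenced arrays lay below both controls, and the change of -0.18 had an interval from -0.43 to 0.065. RPS6, the 40S protein that S6 kinases phosphorylate, read 11.83 and 11.92 against 11.81 and 11.60. Its change of -0.17 had an interval from -0.49 to 0.14, and most of it came from the second silenced array.

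The probe set of RPL22, a 60S protein that binds RNA also outside the ribosome, had its silenced arrays on opposite sides. It read 6.72 and 6.68 on the control arrays and 7.07 and 5.98 after silencing, so that the interval of its change of -0.17 ran from -1.18 to 0.83. Without the first CASP2 siRNA array its change was -0.72, past the thresholds of the study. For RPL7, another 60S protein, the third probe set read 8.08 and 8.10 against 7.68 and 8.12. The change of -0.19 lay in 1 array, and the brighter probe sets of this gene changed by 0.007 and 0.016.

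The 5 largest increases were in probe sets of RPL27A, RPS9, RPS15 and RPL12, each a dimmer probe set of a gene that had a brighter one. For RPL27A, a 60S protein, the dimmest probe set read 7.58 and 7.66 on the control arrays and 8.56 and 7.76 after silencing. The groups did not overlap, and the log2 fold change of 0.54, 1.45-fold, had an interval from -0.22 to 1.30. Without the second CASP2 siRNA array it was 0.94 and passed the thresholds. The next probe set of RPL27A read 8.36 and 8.29 against 8.83 and 8.27, higher on the first silenced array only. The brightest read 11.38 and 11.43 against 11.44 and 11.31, a change of -0.03.

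The dimmer probe set of RPS9, a 40S protein, read 6.38 and 4.79 on the control arrays and 6.04 and 5.80 after silencing. Its control arrays were farther apart than its groups, with a change of 0.33 and an interval from -1.12 to 1.78. Without the first control array the change was 1.12 and passed the thresholds. The brighter probe set of RPS9 changed by -0.07. For RPS15, also of the 40S subunit, the dimmer probe set read 6.64 and 6.42 against 6.81 and 6.65, which did not overlap, by a small margin. Its change of 0.20 had an interval from -0.14 to 0.54, and the brighter probe set changed by -0.08. RPL12, a protein at the base of the stalk, had 4 probe sets, of which the dimmest read 7.20 and 7.44 against 7.62 and 7.30, a change of 0.14. The other 3 changed by -0.02, -0.05 and -0.04.

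**Figure D2:**
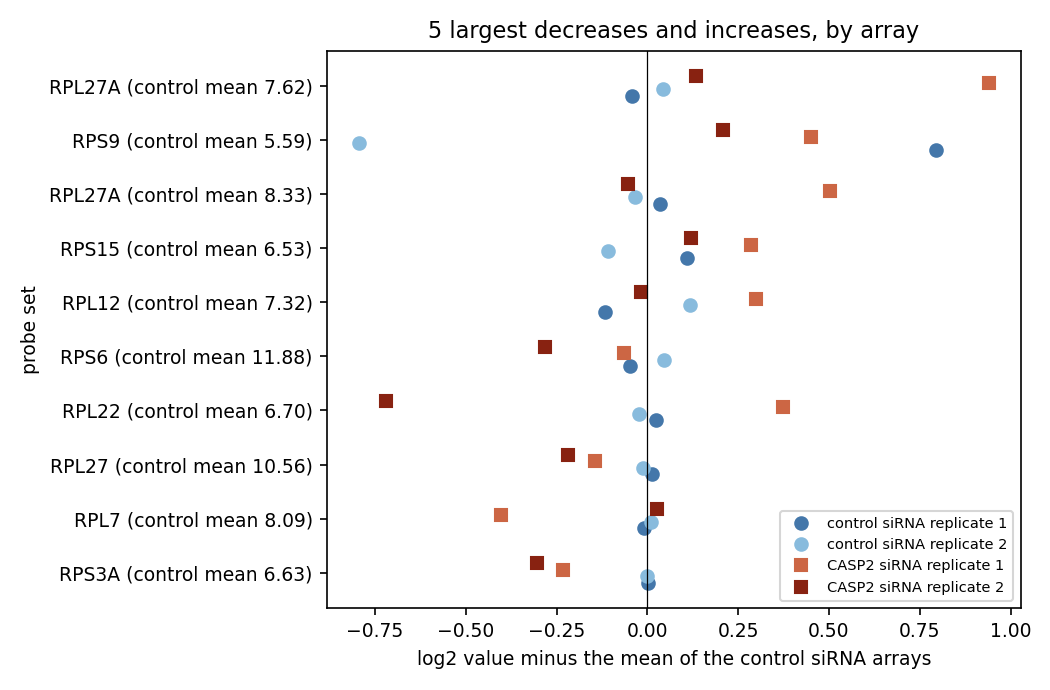
Difference on the log2 scale between every array and the mean of the 2 control siRNA arrays, for the 5 ribosomal protein probe sets with the largest increases (top) and the 5 with the largest decreases (bottom). Circles are control and squares are CASP2 siRNA arrays. In RPL22 the silenced arrays lie on opposite sides of the controls, and in RPS9 the control arrays lie farthest apart.

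Members with known roles on the ribosome follow by array. RPLP1 and RPLP2 form the flexible stalk that recruits elongation factors. RPLP2 read 12.81 and 12.86 on the control arrays and 12.85 and 12.77 after silencing, a change of -0.02. The brighter probe set of RPLP1 read 12.46 and 12.43 against 12.46 and 12.48, a change of 0.03. The other probe set of RPLP1 read 11.27 and 11.21 against 10.93 and 11.53, with silenced arrays on either side of the controls and an interval from -0.60 to 0.58.

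RPL10, which joins the 60S subunit late in its assembly, read 12.77 and 12.77 against 12.79 and 12.73, a change of -0.009 with an interval from -0.25 to 0.23. RPL3, near the peptidyl transferase center, read 12.75 and 12.79 against 12.73 and 12.72, a change of -0.05. RPS3, at the entry of the mRNA channel, read 12.67 and 12.52 against 12.51 and 12.45, a change of -0.11. In RPL3 and RPS3 both silenced arrays lay below the controls, by less than the half-width of their intervals. RPS4X, encoded on the X chromosome, read 11.90 and 11.96 against 11.83 and 11.78, a change of -0.12, and its groups did not overlap.

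Several members are known from p53 signalling and from anemia. RPL5 read 12.98 and 12.99 on the control arrays and 13.00 and 12.94 after silencing, a change of -0.01, and its 2 other probe sets changed by -0.04 and -0.03. RPL11, its partner in the 5S particle, read 11.86 and 11.94 against 11.86 and 11.69. The change of -0.12 had an interval from -0.41 to 0.17 and lay in the second silenced array. RPL23 and RPL26 are also known to act on the MDM2 and p53 pathway. RPL23 read 8.14 and 8.05 against 8.10 and 8.01, a change of -0.04. RPL26 read 10.02 and 9.69 against 10.08 and 9.71, with replicates of each group farther apart than the groups and an interval from -0.46 to 0.54.

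RPS19, the gene most often mutated in Diamond-Blackfan anemia, read 12.36 and 12.42 against 12.36 and 12.36, a change of -0.03. RPS14, lost in the 5q- syndrome, read 12.64 and 12.60 against 12.64 and 12.57, a change of -0.01. Among members with a control mean of 10 or more, RPS27 had the largest increase, from 12.00 and 11.90 to 12.06 and 12.08. Its change of 0.12 had an interval from -0.13 to 0.37. Its paralog RPS27L, a p53 target, read 8.04 and 7.85 against 8.09 and 7.86, a change of 0.02.

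Some paralogs are known mainly from testis or striated muscle. RPL10L, a testis form of RPL10, read 5.92 and 5.94 on the control arrays and 5.86 and 5.89 after silencing, below the median of all probe sets. RPL3L, the muscle form of RPL3, read 6.80 and 6.71 against 6.60 and 6.84, above that median. RPL39L, a testis form of RPL39, read 7.17 and 7.17 against 7.32 and 7.02, a change of 0.0008. The largest of these 3 changes was -0.055, in RPL10L, whose groups did not overlap. RPL41, the smallest ribosomal protein, read 7.74 and 7.67 against 7.80 and 7.82, a change of 0.10 with groups that did not overlap. Probe sets that name RPL41 together with RPL41P5 were brighter, with control means of 12.64 and 11.32 and changes of 0.07 and 0.10.

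The 3 probe sets with the highest control means were those of RPS28, RPL8 and RPS13. RPS28, of the 40S subunit, read 13.68 and 13.71 on the control arrays and 13.65 and 13.78 after silencing. RPL8, of the 60S subunit, read 13.31 and 13.36 against 13.36 and 13.29. RPS13, of the 40S subunit, read 13.13 and 13.08 against 13.14 and 13.00. In all 3 the groups overlapped, and the changes were 0.02, -0.01 and -0.04.

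How far probe sets of 1 gene differ was read from the 20 genes with more than 1 member probe set, 51 probe sets in all. Ribosomal protein genes have many processed pseudogenes in the genome, and whether a probe set also reads such copies was not tested. Between the brightest and the dimmest probe set of a gene the control means differed by a median of 3.55 on the log2 scale, and by more than 4 in 8 genes. RPS3A spanned the widest range, from 12.01 to 2.90 over its 5 probe sets. For RPS9 they were 11.40 and 5.59, and for RPL5 12.98 to 7.69.

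The 3 probe sets of RPS2, a 40S protein, were among the closest, with control means of 12.58, 12.58 and 12.23 and changes of -0.005, -0.006 and -0.010. In all 20 genes the confidence intervals of the probe sets shared a common value. All member intervals but that of 1 RPS3A probe set hold 0, so this is no test of whether probe sets changed alike. The brightest probe set changed least in 12 of the 20. Changes of the brightest probe sets ran from -0.11 for RPL13 to 0.12 for RPS27, and those of the dimmest from -0.19 for RPL7 to 0.54 for RPL27A. With only the brightest probe set of each of the 61 genes, the median change was -0.032 and 48 lay below 0.

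**Figure D3:**
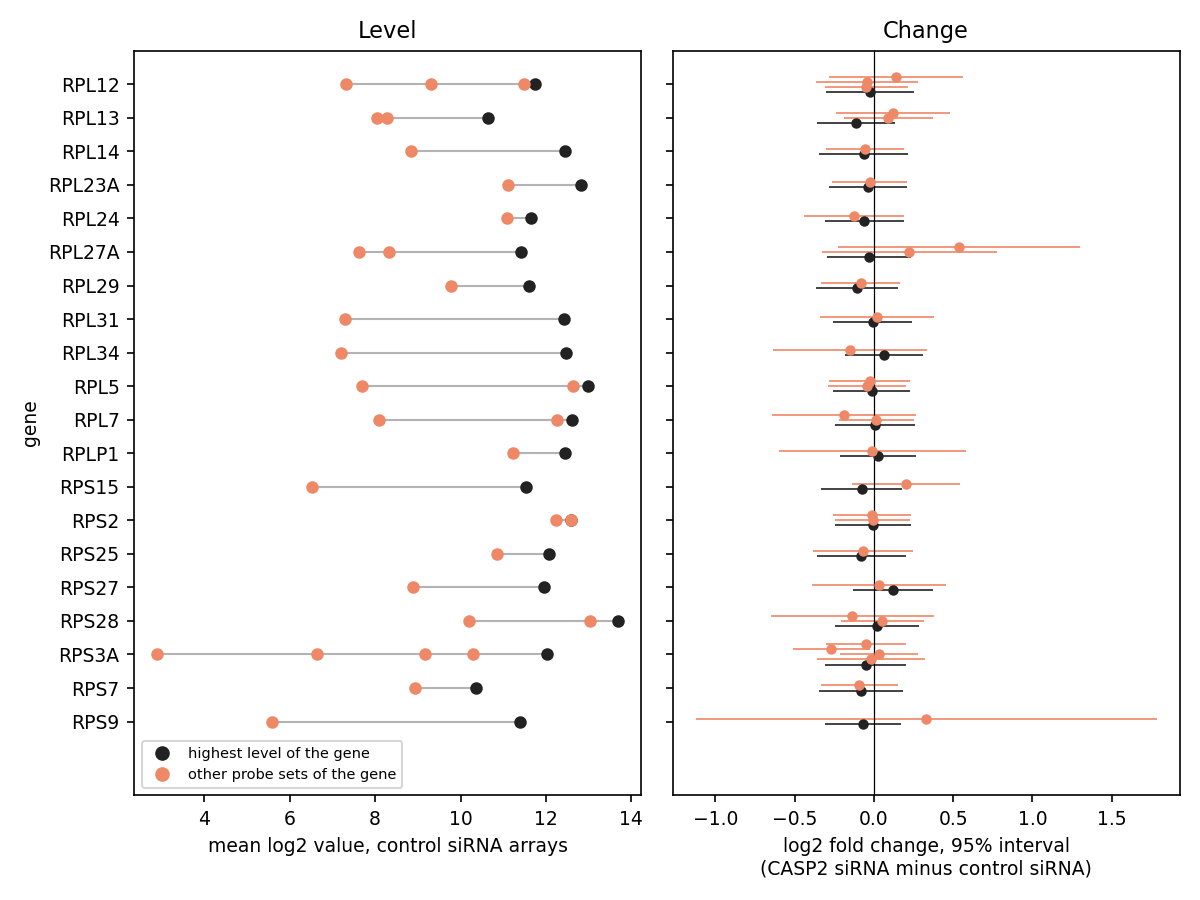
The 20 ribosomal protein genes with more than 1 probe set. Left, mean log2 value on the 2 control siRNA arrays. Right, log2 fold change with its 95% interval from limma, with the brightest probe set in black and the others in orange. Levels of 1 gene differ by up to 9.11, while its intervals share a common value in each of the 20 genes.

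Genes with and without an annotated TOP-like start were set side by side. The brightest probe sets of the 36 genes with a start of a C and at least 5 pyrimidines had a median change of -0.031, from -0.17 to 0.12. Those of the 14 genes with starts but none of that kind had a median of -0.058, from -0.18 to 0.09. The split depends on where the start is annotated. RPL19, counted among the genes without, has an annotated start at a T inside a longer pyrimidine run. The ranges of both groups overlapped over nearly their whole length, and the difference was not tested.

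The genes that work with the ribosomal proteins were taken by role and each read by its brightest probe set. No gene of these lists passed the thresholds of the study or had an adjusted p under 0.05 by limma. Of 21 translation factors and other genes of TOP mRNAs, 12 lay below 0 and the median change was -0.011. Their smallest p values belonged to EIF3A and EEF1G, each with a change of -0.07. Of 17 genes of mTORC1 and of the control of translation, 9 lay below 0, with a median of -0.015. EIF4EBP2, a repressor of cap-dependent translation, had the smallest p in that list. It read 9.29 and 9.34 on the control arrays and 10.06 and 9.71 after silencing, a change of 0.57 with an interval from 0.17 to 0.96 and an adjusted p by limma of 0.9999. MLST8, a subunit of mTORC1, followed with a change of -0.19.

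Genes for the making of ribosomes are given beside the background of 49.3% below 0. At control means from 8 to 10, where most of these genes lie, all probe sets had medians of -0.037 to -0.019 in steps of 0.5 of the level. Of 31 ribosome assembly factors measured, 25 lay below 0, with a median of -0.084. BOP1, which processes the large subunit RNA, changed by -0.33 with an interval from -0.66 to -0.01, and DKC1, the pseudouridine synthase, by -0.26. Of 15 genes of RNA polymerase I, 13 lay below 0, with a median of -0.117. UBTF, its upstream binding factor, changed by -0.30 with an interval from -0.54 to -0.06, and POLR1C by -0.25. Of 5 ribosomal protein chaperones 3 lay below 0, with a median of -0.065, and GRWD1 and TSR2 had the smallest p, with changes of -0.14 and -0.18.

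Of 74 mitochondrial ribosomal proteins, which belong to a separate ribosome, 64 lay below 0, with a median of -0.086. MRPS10 changed by -0.30 and MRPL17 by -0.21. The same split between arrays ran through these lists. On the first CASP2 siRNA array the median difference from the control means was 0.005 for the assembly factors, 0.020 for RNA polymerase I and 0.001 for the mitochondrial ribosomal proteins. On the second it was -0.18, -0.24 and -0.16. Of 7 further ribosomal protein genes outside the rule, 4 lay below 0, with a median of -0.043, and the paralogs RPL26L1 and RPL7L1 had the smallest p, with changes of -0.28 and -0.25.

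**Figure D4:**
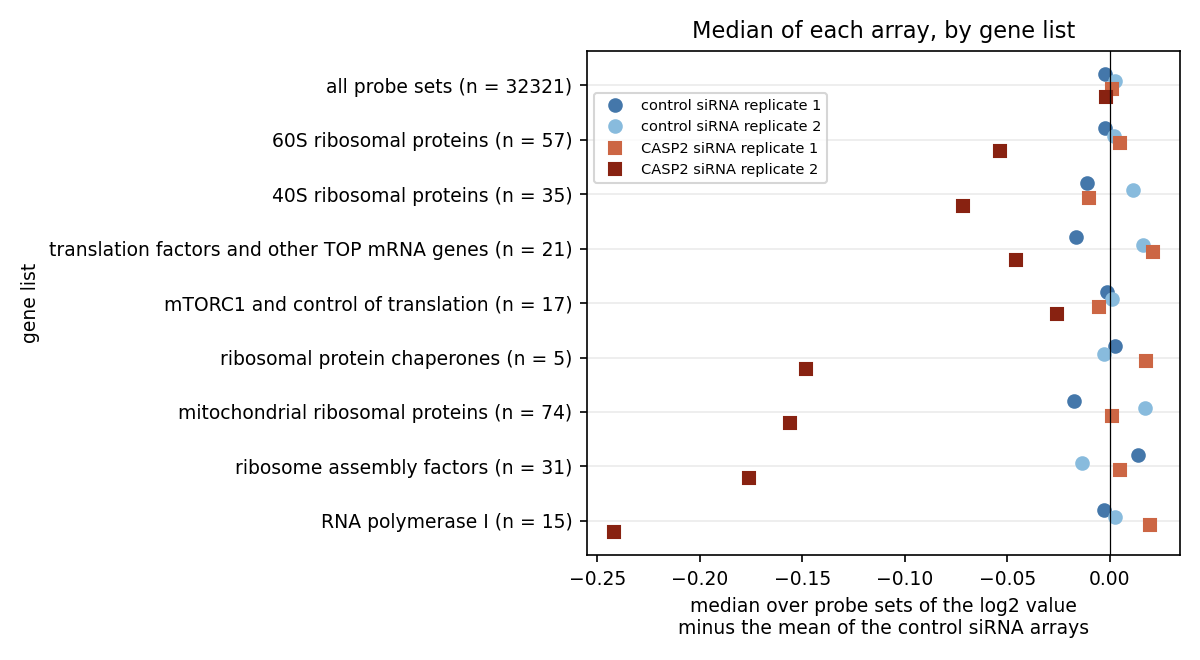
Median over the probe sets of each gene list of the log2 value minus the mean of the 2 control siRNA arrays, 1 point per array. Circles are control and squares are CASP2 siRNA arrays. In the 8 gene lists the second CASP2 siRNA array reads lowest, down to -0.24 for RNA polymerase I, while in all probe sets the 4 arrays lie within 0.00241 of 0.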

How the data were processed

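Total RNA of the 4 cultures was labelled with biotin and hybridized to Affymetrix gene arrays. The deposited log2 values, 1 per probe set and array, had been made by the authors with RMA, which equalizes probe values between arrays and compresses folds near background. No source used here names the version of RMA. No column was left unmapped. Symbols came from the platform annotation, checked against RefSeq (GRCh38.p14).

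Each of the 32321 probe sets was fitted with limma 3.58.1 in R 4.3.3, CASP2 siRNA minus control siRNA, two-sided, with p-values adjusted (Benjamini-Hochberg) across the whole table (2 residual and 2.47 prior degrees of freedom). The script was tested on simulated data. Intervals are 95% intervals that cover only the spread among these arrays, and the number of arrays limits their precision. An exact permutation test of 2 against 2 arrays cannot go below p = 0.333. In the gene lists each gene was read by its probe set of highest mean.

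Named were the 5 largest increases and decreases, the 3 highest and 3 lowest control means, genes with several probe sets, a list of genes by role, and the 2 smallest p of each list beside them. Members and lists were chosen with earlier results of these data known. RPL39L, listed among genes outside the rule, meets it and was counted as a member. No protein sequence is shown, and some ribosomal protein genes are not reported here. Alternatives were the t-test of the study's methods, limma with trend and robust options, quantile normalization, median centring, leaving out dim probe sets, 1 probe set per gene, adding probe sets of several symbols, the replicate number as a block, and leaving out each array. A control mean of 10 or more was an alternative chosen after seeing the data.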

Additional observations from a re-analysis of the deposited data

How the results depend on the processing

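No ribosomal protein probe set passed the thresholds of the study under the t-test of the methods, limma with trend and robust options, quantile normalization, median centring, leaving out dim probe sets, or the replicate block. Over all probe sets the calls, 107 higher and 117 lower, became 35 and 37 with the methods' t-test and 22 and 33 without dim probe sets. With arrays centred on their medians, 12 members in place of 23 had both silenced arrays below both controls. Whether this fall is particular to the members was not tested, as the share over all probe sets is not given for that setting. Leaving out 1 array gave 118 to 414 higher and 157 to 592 lower calls over all probe sets, and 0 to 1 members called in each direction (RPS9 at 1.12 without the first control array, RPL27A at 0.94 without the second CASP2 siRNA array, RPL22 at -0.72 without the first). The median change of the members then ran from -0.0586 to 0.0014, the number below 0 from 44 to 67, and, with fewer arrays to separate, the number whose groups did not overlap from 11 to 33 above and from 30 to 59 below. Without the first CASP2 siRNA array 59 members read below both controls, against 40.2% of all probe sets. Without the second 35 did, against 37.0%. For the other counts in these settings the shares over all probe sets are not given here. Same-numbered arrays did not deviate together (r = 0.0198 across probe sets), so the numbers were not taken to pair them. With 2 arrays a group the deviations of the second pair mirror those of the first, so this is 1 comparison. With the replicate block 142 probe sets were called higher and 160 lower, 0 of them members. In this balanced design the block cannot alter a fold change, so the median change of the members was necessarily the same, -0.027. Of 697 values of 70 named probe sets under the alternatives, 694 stayed on the same side of the thresholds, 3 passed them and 59 had the other sign. Some of these values could change neither sign nor side. The methods' t-test, the trend and robust options, leaving out dim probe sets and the replicate block do not alter fold changes.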

Other observations

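Probe sets whose only symbol was that of a ribosomal protein pseudogene numbered 21. Of these 18 lay below 0, against 49.3% of all probe sets, with a median log2 fold change of -0.052. None passed the thresholds of the study. The lowest was RPSAP52, which read 8.77 and 8.77 on the control arrays and 8.59 and 8.09 after CASP2 silencing, a change of -0.43, and the highest was RPL21P44 at 0.14. Only 2 of the 21, RPL13AP5 and RPL13AP20, had a control mean of 10 or more, and 8 lay below the median of all probe sets.

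Probe sets that named a ribosomal protein gene together with other symbols, often small nucleolar RNAs of its introns, numbered 38. Their median change was -0.033 and 27 lay below 0, against 49.3% of all probe sets. They ran from -0.28 for a probe set of RPL10 with SNORA70 to 0.47 for one of RPL13 with SNORD68, which read 8.81 and 8.28 on the control arrays and 9.33 and 8.71 after silencing. The second silenced array lay between the control arrays.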
